A study of Homo sapiens with 9 samples.

Results

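Keratinocytes make chemokines, small secreted proteins that draw leukocytes into the skin by binding receptors on those cells. CXC ligands such as CXCL1 and CXCL8 attract neutrophils, CC ligands such as CCL2 attract monocytes and T cells, and CXCL16 and CX3CL1 are made as membrane-bound proteins that proteases release. Many chemokine genes are switched on through NF-κB, AP-1 and interferon-regulated factors when interleukin-1, tumour necrosis factor or interferons reach the cell.

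The 10 chemokine genes described here were chosen by name, with earlier results of these data known. They were CCL2, CCL5, CCL20, CXCL1, CXCL2, CXCL3, CXCL8, CXCL10, CXCL16 and CX3CL1, and all 10 were found among the 58676 genes of the count table. The material was 9 RNA-seq libraries of HaCaT, a spontaneously immortalised line of human skin keratinocytes. Cells had spent 14 h in 250 nM CDDO-Me, 10 µM PRL-295 or 1% DMSO, and each condition had 3 libraries. CDDO-Me, also called bardoxolone methyl, is an electrophile that turns on NRF2, which drives antioxidant genes; PRL-295 is known by its code name, and the study's title concerns NRF2 activators that are not electrophilic. All groups were the same line in DMEM with no added cytokine named in the labels, DMSO is listed for the control only, and a single immortalised line in culture holds no leukocytes that could answer the ligands. Separate cultures are not named for the replicates, so p-values measure the spread between these samples, which may be technical.

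Library totals ran from 23383800 to 32942156 counts, so that 3 counts, taken as the limit that a count of 0 allows, stood for 0.0911 to 0.128 CPM (counts scaled to library totals of 1e6), which covers counting error only. All 12 keratinocyte markers averaged at least 1 CPM over the 9 libraries, with summed levels of 25900 to 30500 CPM in CDDO-Me libraries, 16700 to 18400 CPM in PRL-295 libraries and 20500 to 23000 CPM in DMSO libraries. Of 9 immune markers the sum was 3.45 to 3.88 CPM in CDDO-Me, 4.52 to 5.32 CPM in PRL-295 and 4.8 to 6.27 CPM in DMSO libraries, led by CD74, with PTPRC at 0 in CDDO-Me and PRL-295 libraries and CD3E at 0 in PRL-295 and DMSO libraries. Of 9 fibroblast markers the sum was 10.3 to 13.1, 6.98 to 7.67 and 8.47 to 11.8 CPM in the CDDO-Me, PRL-295 and DMSO libraries, nearly all of it COL1A1, with COL3A1, DCN and LUM at 0. The 6 endothelial markers summed to at most 2.68 CPM and the 6 melanocyte markers to at most 9.84 CPM in any library. One CDDO-Me library stood apart: CDDO-Me 1 listed 935 of 13761 genes of middle abundance (a mean of at least 20 counts in the other libraries) at 0, or 6.79%, against 0.999% in DMSO 2, 0.441% in DMSO 1 and at most 0.13% in the other 6.

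Levels of different genes were compared per length, as the deposited FPKM. CXCL1, a neutrophil attractant that acts through CXCR2, was the highest of the 10 in each of the 9 libraries, at 52.2 ± 4.69 FPKM in CDDO-Me, 56.9 ± 3.09 FPKM in PRL-295 and 73.3 ± 10.2 FPKM in DMSO cells (SD, n = 3 each). CXCL16, a transmembrane ligand of CXCR6, was second in each library, at 35.8 ± 2.65, 53.0 ± 2.93 and 57.8 ± 4.58 FPKM in the same order. In PRL-295 cells the per-length levels of these 2 genes overlapped, with CXCL1 at 54.6 to 60.4 FPKM and CXCL16 at 50.1 to 56.0 FPKM.

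The gene next in order changed with the treatment. It was CCL2 in all 3 DMSO libraries at 10.8 ± 1.76 FPKM, above CCL5 (7.38 ± 2.12) and CXCL8 (5.59 ± 0.636), whose FPKM ranges overlapped each other. With CDDO-Me the order was CXCL8 at 8.41 ± 1.87, CCL5 at 3.31 ± 1.09 and CCL2 at 0.639 ± 0.0625 FPKM, in all 3 libraries. CXCL8 followed CXCL16 in PRL-295 libraries too, at 8.7 ± 2.38 FPKM, while CCL5 (4.57 ± 0.628) and CCL2 (4.47 ± 0.543) did not differ beyond their spread and changed places between libraries. The other 5 genes, CXCL10, CXCL3, CCL20, CXCL2 and CX3CL1, averaged under 1 FPKM in each group and had no stable order among themselves, except that CX3CL1 was last, alone or tied at 0, in 8 of 9 libraries. The 10 genes together took 0.0188 to 0.0204% of counts in CDDO-Me, 0.0257 to 0.0266% in PRL-295 and 0.0269 to 0.0333% in DMSO libraries.

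**Figure D1:**
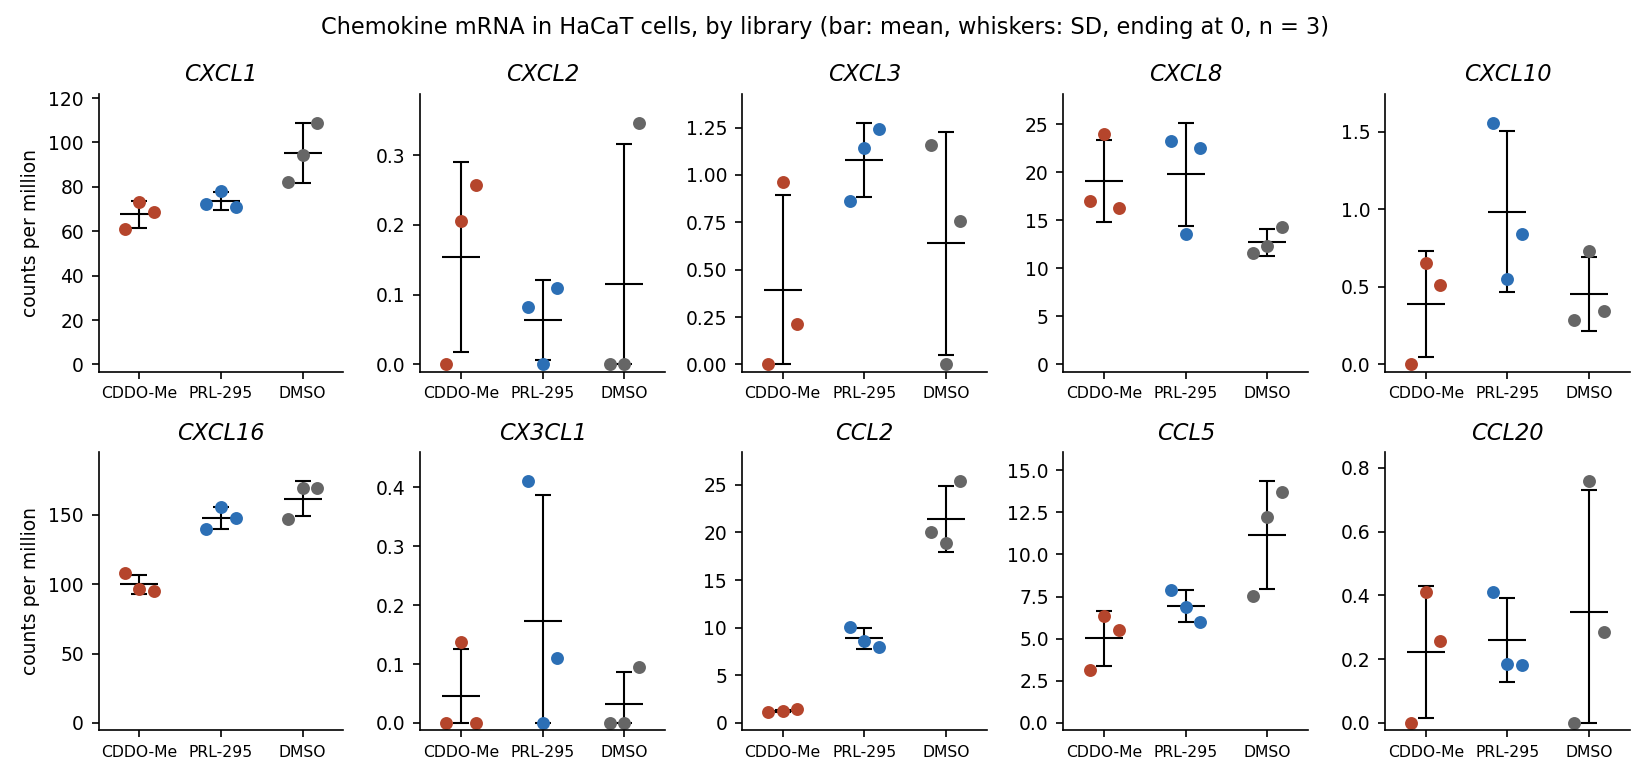
CPM of each of the 10 chemokine genes by library, on a linear axis per gene. Each point is 1 library of the CDDO-Me, PRL-295 or DMSO group, the bar is the mean and the whiskers are the SD, ended at 0 where they would pass below it (n = 3). CCL2 separates all 3 groups, with means of 1.27, 8.88 and 21.4 CPM, while CXCL2, CXCL3, CXCL10, CX3CL1 and CCL20 lie near 0.

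Of the 10 genes, 8 passed the filter on low counts and were tested; CXCL2 and CX3CL1 did not. Against DMSO, CDDO-Me lowered 4 of the 8 (CCL2, CCL5, CXCL1 and CXCL16) and raised 0 (0 with DESeq2 and limma as well), by edgeR's quasi-likelihood test at a Benjamini-Hochberg adjusted p under 0.05 over all 16239 tested genes. Over those genes 4.57% were called lower, 4.65% higher and 9.22% in either direction. PRL-295 against DMSO lowered 1 of the 8, CCL2, and raised 0 (as with DESeq2 and limma), where the whole table had 0.222% called lower, 0.462% higher and 0.684% in all. PRL-295 against CDDO-Me had 2 of the 8 higher (CCL2 and CXCL16) and 0 lower (as with DESeq2 and limma), with 0.905% of all genes higher, 0.684% lower and 1.59% in all. At an unadjusted p under 0.05, 5, 3 and 2 of the 8 passed in these 3 comparisons, against 26.0%, 12.9% and 17.2% of all tested genes. With a change of at least 2-fold also required, 2 chemokines (CCL2 and CCL5), 1 (CCL2) and 1 (CCL2) were called in the 3 comparisons, beside 3.19%, 0.382% and 0.677% of all tested genes. The median log2 fold change of the 8 was -0.68, -0.22 and 0.55 in these comparisons, against 0.01, -0.01 and -0.01 over all tested genes. The CDDO-Me median lies between CXCL3 (-0.681) and CCL20 (-0.676), 2 genes with few counts. Their 95% intervals were -3.88 to 2.52 and -4.01 to 2.66, so this median is uncertain. The 10 genes were chosen with earlier results of these data known, so the counts and medians set beside all genes are description only. Both compound comparisons share the DMSO libraries, and the doses differ, so the direct comparison sets these 2 treatments against each other and says nothing of potency.

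**Figure D2:**
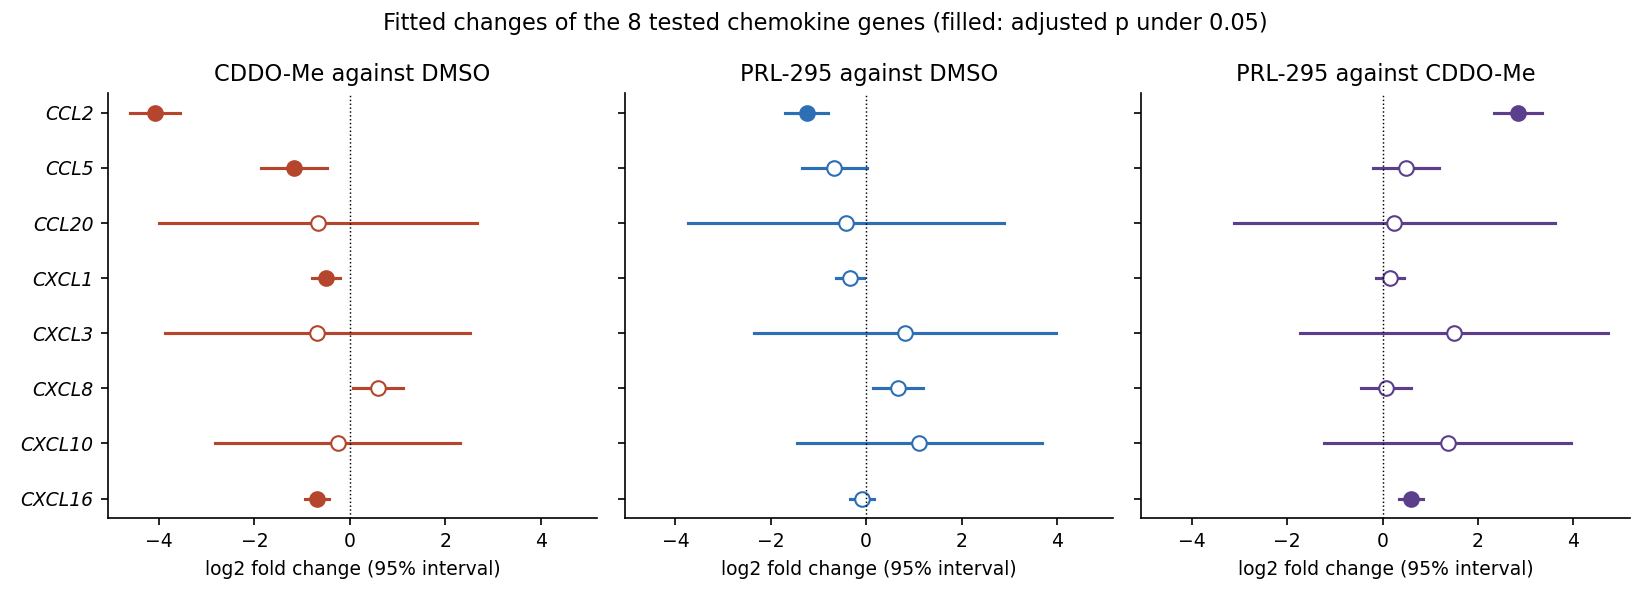
Log2 fold changes of the 8 tested chemokine genes with 95% intervals from the fit of all 9 libraries, for CDDO-Me against DMSO, PRL-295 against DMSO and PRL-295 against CDDO-Me. Filled points had an adjusted p under 0.05. CCL2 was called in all 3 panels, and the intervals of CCL20, CXCL3 and CXCL10 span 0 widely.

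CCL2 (ENSG00000108691; hg38 chr17:34255218-34257203, plus strand), the main attractant of monocytes through CCR2, had the largest fitted fall of the 8 tested chemokines with either compound. CDDO-Me libraries had 1.19, 1.20 and 1.41 CPM, PRL-295 libraries 10.1, 8.60 and 7.96 CPM, and DMSO libraries 20.0, 18.9 and 25.4 CPM. The 3 groups did not overlap, and every PRL-295 library lay between the other groups. With CDDO-Me the level was 16.9-fold lower than in DMSO (log2 fold change -4.08 ± 0.24 SE, 95% interval -4.60 to -3.56, edgeR adjusted p = 6.25e-06). With PRL-295 it was 2.37-fold lower than in DMSO (-1.25 ± 0.20 SE, interval -1.70 to -0.79, edgeR adjusted p = 0.0226). PRL-295 cells had 7.15-fold more CCL2 mRNA than CDDO-Me cells (2.84 ± 0.23 SE, interval 2.34 to 3.34, edgeR adjusted p = 1.68e-04). The fall with CDDO-Me and the direct difference were called in all 23 alternative fits. The fall with PRL-295 kept its sign in each, but its edgeR adjusted p was 0.0819 to 0.157 without any 1 of PRL-295 1, 2 or 3 or DMSO 1, 2 or 3. In such bulk samples, fewer cells that make a transcript and less of it per cell cannot be told apart.

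CCL2 stood alone among its neighbours. Along chromosome 17 it is followed by CCL7, CCL11, CCL8, CCL13 and CCL1, other monocyte and eosinophil attractants, within 103125 bases. CCL7 had 2 summed counts in CDDO-Me, 2 in PRL-295 and 4 in DMSO libraries, and the other 4 genes had 0 in all 9 libraries. At these depths a change of those neighbours was not detectable.

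CCL5 (ENSG00000271503; hg38 chr17:35871491-35880793, minus strand), an attractant of T cells, was 2.24-fold lower with CDDO-Me. Its level was 3.17, 6.35 and 5.52 CPM in CDDO-Me libraries, 7.89, 6.87 and 5.99 CPM in PRL-295 libraries and 7.55, 12.2 and 13.7 CPM in DMSO libraries. No CDDO-Me library reached the lowest DMSO library, whereas PRL-295 overlapped both other groups. CDDO-Me against DMSO gave -1.16 ± 0.32 SE (edgeR adjusted p = 0.0445), close to the threshold: without any 1 of CDDO-Me 2 or 3, PRL-295 1 or 3 or DMSO 1, 2 or 3, the adjusted p was 0.0506 to 0.155, and with GC and length correction it was 0.116 (-0.86). PRL-295 against DMSO gave -0.67 (95% interval -1.35 to 0.02, edgeR adjusted p = 0.402) and PRL-295 against CDDO-Me 0.50 (interval -0.20 to 1.19, adjusted p = 0.454), and neither was called. An antisense gene on the other strand, AC015849.2, had 16 counts over all libraries, and the strand setting of the counting is not given. Of the 9 other chemokine genes of its cluster, from CCL16 to CCL4L2, CCL18 had 1 count in PRL-295 and the rest had 0.

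CXCL16 (ENSG00000161921; hg38 chr17:4733526-4739922, minus strand) had the most counts of the 10. It was at 108, 96.6 and 94.9 CPM in CDDO-Me libraries, 140, 156 and 148 CPM in PRL-295 libraries and 147, 169 and 169 CPM in DMSO libraries. All CDDO-Me libraries lay below all others, and the PRL-295 and DMSO ranges overlapped. CDDO-Me lowered it 1.62-fold against DMSO (-0.70 ± 0.12 SE, edgeR adjusted p = 0.00516), and PRL-295 cells had 1.51-fold more than CDDO-Me cells (0.60 ± 0.12 SE, edgeR adjusted p = 0.0279). PRL-295 against DMSO gave -0.10 with a 95% interval of -0.35 to 0.16 (edgeR adjusted p = 0.818). MED11, which overlaps CXCL16 on the opposite strand, had 398, 441 and 579 summed counts in CDDO-Me, PRL-295 and DMSO, against 8492, 11694 and 14471 for CXCL16.

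Libraries also differed by base composition, which touches CXCL16 and CXCL8, the GC-richest (56.0%) and GC-poorest (33.4%) of the 10 by their longest transcript. Across genes, how far a library stood from the average library correlated with GC content at -0.017, -0.55 and -0.14 in CDDO-Me libraries, -0.33, 0.27 and -0.075 in PRL-295 libraries and 0.26, 0.21 and 0.27 in DMSO libraries. With each library corrected for GC content and gene length, the CXCL16 value for CDDO-Me against DMSO was -0.37 (edgeR adjusted p = 0.108), or -0.40 (adjusted p = 0.0437) with trends drawn from genes of at least 1 CPM. The direct CXCL16 difference was 0.39 and 0.40 under the same corrections (adjusted p = 0.144 and 0.0725), and its adjusted p was 0.0549 to 0.126 without any 1 of PRL-295 1, 2 or 3, CDDO-Me 2 or 3 or DMSO 2 or 3.

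CXCL1, CXCL2, CXCL3 and CXCL8 are the neutrophil attractants among the 10, and their genes lie in a single cluster on chromosome 4. CXCL1, CXCL2 and CXCL3 are close copies: their coding sequences (321 bases each) were 93.5% identical for CXCL1 and CXCL2, 90.7% for CXCL1 and CXCL3 and 94.4% for CXCL2 and CXCL3, and the longest stretch shared by 2 transcripts was 97 bases. Reads from such stretches may be split or dropped by the counting, so their levels are uncertain to that extent.

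The promoters of these genes and of CXCL10 are shown because they hold the same NF-κB-type letters. The 200 bases before the start annotated by RefSeq are given 5′ to 3′ on the gene's strand from RefSeq (GRCh38.p14), at chr4:73869193-73869392 (plus strand) for CXCL1, chr4:74099196-74099395 (minus) for CXCL2, chr4:74038690-74038889 (minus) for CXCL3, chr4:73740369-73740568 (plus) for CXCL8 and chr4:76023498-76023697 (minus) for CXCL10, an interferon-induced attractant of T cells through CXCR3. Capitals mark the κB-type letters GGAATTTCC, searched on both strands. The RefSeq start lies inside the GENCODE gene span, which is the span given with each gene here, for CXCL2, CXCL3 and CXCL8, so the last part of those 3 stretches falls within that span; for CXCL1 and CXCL10 the stretch ends where the span begins.
CXCL1: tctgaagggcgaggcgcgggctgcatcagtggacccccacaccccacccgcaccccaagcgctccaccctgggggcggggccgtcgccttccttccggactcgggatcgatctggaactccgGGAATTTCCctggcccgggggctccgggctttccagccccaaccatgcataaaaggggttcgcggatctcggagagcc
CXCL2: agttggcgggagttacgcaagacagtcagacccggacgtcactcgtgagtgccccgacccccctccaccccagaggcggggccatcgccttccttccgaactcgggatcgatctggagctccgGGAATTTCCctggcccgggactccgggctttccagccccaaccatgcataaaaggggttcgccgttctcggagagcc
CXCL3: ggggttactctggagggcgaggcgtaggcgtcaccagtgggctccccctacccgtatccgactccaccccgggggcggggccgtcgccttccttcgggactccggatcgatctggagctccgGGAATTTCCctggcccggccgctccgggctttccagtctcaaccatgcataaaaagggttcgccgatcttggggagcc
CXCL8: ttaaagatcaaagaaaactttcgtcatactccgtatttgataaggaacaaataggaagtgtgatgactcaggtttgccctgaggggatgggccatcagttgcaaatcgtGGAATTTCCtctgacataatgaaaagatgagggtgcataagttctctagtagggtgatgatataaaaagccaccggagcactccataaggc
CXCL10: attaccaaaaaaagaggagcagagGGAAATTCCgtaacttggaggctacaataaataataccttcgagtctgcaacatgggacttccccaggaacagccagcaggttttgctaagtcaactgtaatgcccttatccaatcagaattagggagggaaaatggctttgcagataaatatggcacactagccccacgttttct

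Among the 10 genes, 6 had a promoter in the RefSeq table: these 5 and CCL20. The κB-type letters were found in the 300 bases around the start (250 before to 50 after) of 5 of these 6, all but CCL20, and in 0.461% of all 35116 windows. They began 78 bases before the start in CXCL1 and CXCL3, 77 in CXCL2, 91 in CXCL8 and, on the other strand, 176 in CXCL10. The 200 bases shown were 81.4% identical between CXCL1 and CXCL2, 87.5% between CXCL1 and CXCL3 and 81.2% between CXCL2 and CXCL3, so these 3 matches are not independent. The core of the antioxidant response element that NRF2 binds, TGACNNNGC, was found only in CXCL10 among the 6 (13.3% of all windows), and the AP-1-type letters TGANTCA only in CXCL8 (7.71%). Interferon-response-type letters, GAAANNGAA, were in CXCL2, CXCL3 and CXCL10 (8.11%). The κB-type and AP-1-type letters of CXCL8 did not overlap. A match is a description of letters and not of binding. Only these strings were searched, so a promoter without a match, CCL20 among them, may hold other forms of such sites. The shares of all windows describe these strings only, and enrichment was not tested.

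**Figure D3:**
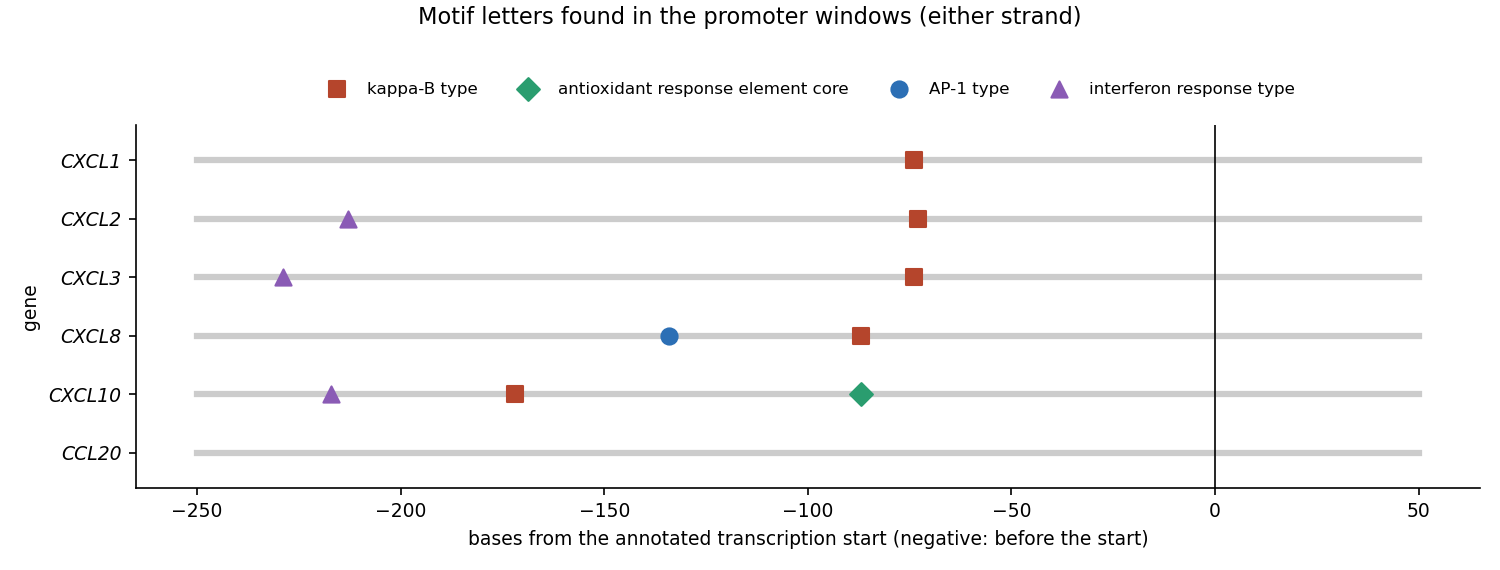
Positions of the searched motif letters, on either strand, in the promoter windows of the 6 chemokine genes with an entry, as distance in bases from the RefSeq start. Grey lines are the 300-base windows and markers are matches. The κB-type squares of CXCL1, CXCL2, CXCL3 and CXCL8 lie within 91 bases before the start, and CCL20 has no match to the searched letters. Other forms of these sites were not searched.

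CXCL1 (ENSG00000163739; hg38 chr4:73869393-73871242, plus strand) was 1.41-fold lower with CDDO-Me than with DMSO. Levels were 61.1, 73.1 and 68.6 CPM in CDDO-Me libraries, 72.1, 78.3 and 70.8 CPM in PRL-295 libraries and 82.1, 94.5 and 109 CPM in DMSO libraries. Both compound groups lay below all DMSO libraries and overlapped each other. CDDO-Me against DMSO gave -0.50 ± 0.13 SE (edgeR adjusted p = 0.0437), and without any 1 of CDDO-Me 1, 2 or 3, PRL-295 1 or 3 or DMSO 1, 2 or 3 the adjusted p was 0.0524 to 0.163, and with GC and length correction it was 0.241 (-0.43), or 0.0386 (-0.45) with trends drawn from genes of at least 1 CPM. PRL-295 against DMSO gave -0.34 (95% interval -0.63 to -0.05, edgeR adjusted p = 0.312) and was called only with the GC and length trend drawn from genes of at least 1 CPM (-0.57, adjusted p = 0.0383). PRL-295 against CDDO-Me gave 0.16 (interval -0.14 to 0.45, edgeR adjusted p = 0.595), and the sign turned under the GC corrections (-0.19 and -0.13).

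CXCL8 (interleukin-8, which binds CXCR1 and CXCR2; ENSG00000169429; hg38 chr4:73740506-73743716, plus strand) was the one well-detected member with higher mean levels under both compounds, and neither difference passed the test. It was at 17.0, 24.0 and 16.3 CPM in CDDO-Me libraries, 23.3, 13.6 and 22.5 CPM in PRL-295 libraries and 11.6, 12.3 and 14.3 CPM in DMSO libraries. All CDDO-Me libraries lay above DMSO, and PRL-295 2 fell inside the DMSO range. CDDO-Me against DMSO gave 0.58 (95% interval 0.06 to 1.11, edgeR adjusted p = 0.15) and PRL-295 against DMSO 0.66 (interval 0.13 to 1.19, edgeR adjusted p = 0.269). The difference between the compounds was 0.08, with an interval of -0.45 to 0.60. After the GC and length correction the CDDO-Me value was -0.08 (interval -0.60 to 0.43) and the PRL-295 value 0.42. Per length, CXCL1 exceeded CXCL8 6.3-, 5.35- and 7.36-fold in CDDO-Me, 5.42-, 10.1- and 5.53-fold in PRL-295 and 12.5-, 13.5- and 13.3-fold in DMSO libraries. The compound libraries all lay below the DMSO libraries in this ratio. With GC and length correction, the values against DMSO for CDDO-Me were -0.43 for CXCL1 and -0.08 for CXCL8. For PRL-295 they were -0.61 and 0.42. The ratio itself was not corrected, and the part of the GC trend in it was not tested.

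**Figure D4:**
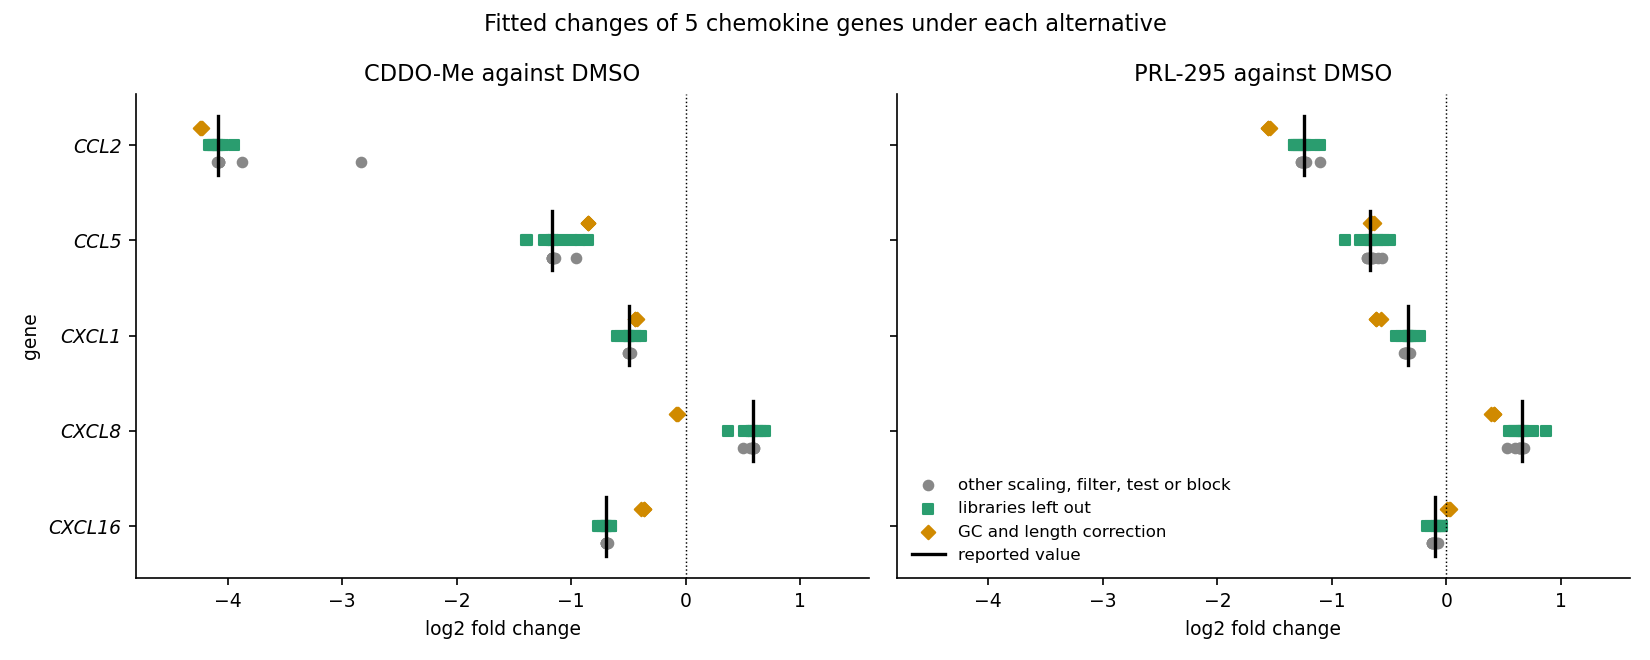
Log2 fold changes of CCL2, CCL5, CXCL1, CXCL8 and CXCL16 against DMSO under each alternative fit, for CDDO-Me and PRL-295. Black bars are the reported values, and markers are fits with libraries left out, with GC and length correction, or with another scaling, filter, test or block. The CCL2 marker nearest to 0 for CDDO-Me is limma on log2(FPKM + 1), a scale that understates changes of low genes, and the CXCL8 diamonds for CDDO-Me lie at about -0.08.

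Between CXCL8 and CXCL2 the chromosome 4 cluster also holds CXCL6, PF4V1, PF4, PPBP and CXCL5. CXCL6, another neutrophil attractant, was the only one of these above 2 CPM, at 5.67, 6.56 and 6.12 CPM in CDDO-Me, 5.92, 6.65 and 4.89 CPM in PRL-295 and 7.76, 12.3 and 10.4 CPM in DMSO libraries. Both compound groups lay below DMSO, as for CXCL1, and neither difference passed the test (CDDO-Me -0.74, edgeR adjusted p = 0.0867; PRL-295 -0.78, adjusted p = 0.213). CXCL5 had 31, 70 and 98 summed counts in CDDO-Me, PRL-295 and DMSO, and the platelet genes PF4, PF4V1 and PPBP had 2 counts in all, both of PPBP in DMSO. Genes next to each other thus ranged from 0 counts to CXCL1 at 5682, 5813 and 8549 summed counts.

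**Figure D5:**
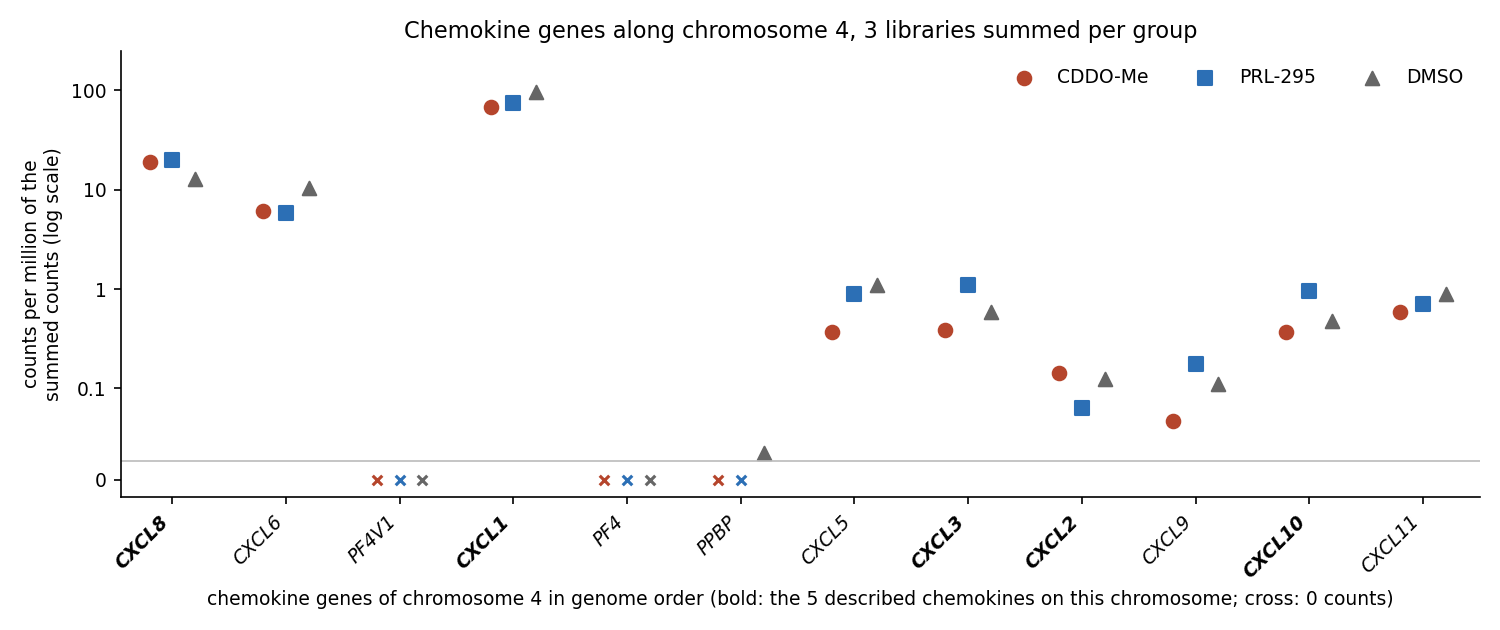
Level of the chemokine genes of chromosome 4 in genome order (not to distance), as CPM of the summed counts of 3 libraries per group, on a log axis with 0 shown as crosses below the line. CXCL1 and CXCL6 lie lower and CXCL8 higher in the CDDO-Me and PRL-295 sums than in the DMSO sum, and the 6 genes from CXCL5 to CXCL11 lie near or below 1.

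The 5 remaining members were near 0, with a mean under 1 CPM in at least 1 group, and are given as counts. CXCL3 (ENSG00000163734; hg38 chr4:74036589-74038807, minus strand) had 0, 28 and 5 counts in CDDO-Me libraries, 21, 31 and 34 in PRL-295 libraries and 28, 0 and 24 in DMSO libraries. PRL-295 libraries all held it, while CDDO-Me 1 and DMSO 2 were at 0. Its fitted differences were -0.68 for CDDO-Me against DMSO (95% interval -3.88 to 2.52), 0.81 for PRL-295 against DMSO (-2.34 to 3.97) and 1.49 for PRL-295 against CDDO-Me (-1.73 to 4.72), and edgeR adjusted p-values ran from 0.657 to 0.895. CXCL2 (ENSG00000081041; hg38 chr4:74097035-74099293, minus strand), a ligand of CXCR2, summed to 12, 5 and 11 counts in CDDO-Me, PRL-295 and DMSO and was at 0 in 4 of 9 libraries.

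CXCL10 (ENSG00000169245; hg38 chr4:76021117-76023497, minus strand) had 0, 19 and 12 counts in CDDO-Me libraries, 38, 15 and 23 in PRL-295 libraries and 7, 24 and 11 in DMSO libraries. The 3 groups overlapped. CDDO-Me against DMSO gave -0.25 (95% interval -2.83 to 2.32, edgeR adjusted p = 0.923) and PRL-295 against DMSO 1.11 (interval -1.45 to 3.68, edgeR adjusted p = 0.785). Its neighbours CXCL9 and CXCL11, which share the receptor CXCR3, were as low, with 4, 14 and 10 and with 50, 56 and 79 summed counts in CDDO-Me, PRL-295 and DMSO.

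CCL20 (ENSG00000115009; hg38 chr2:227813842-227817564, plus strand), the ligand of CCR6, had 0, 12 and 6 counts in CDDO-Me libraries, 10, 5 and 5 in PRL-295 libraries and 0, 25 and 9 in DMSO libraries. The groups overlapped, and the fitted values were -0.68 (interval -4.01 to 2.66) and -0.43 (-3.75 to 2.89) against DMSO, with edgeR adjusted p = 0.825 and 0.959. CX3CL1 (ENSG00000006210; hg38 chr16:57372458-57385048, plus strand), the membrane-bound ligand of CX3CR1, summed to 4, 13 and 3 counts in CDDO-Me, PRL-295 and DMSO. Its neighbours CCL22 and CCL17, ligands of CCR4, had 43, 20 and 38 and 12, 14 and 30 counts. The intervals of the 3 tested near-zero chemokines span several-fold changes in either direction.

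All 5 near-zero genes were at 0 in CDDO-Me 1. That library had 304 genes with 1 to 5 counts, against 866 in DMSO 2, 2083 in DMSO 1 and 4332 to 5772 in the other 6, so that low genes were listed there at 0 more often. The reason was not tested. Without CDDO-Me 1 and DMSO 2, a fit added after the data were seen, CCL20 and CXCL10 gave 1.14 and 0.86 for CDDO-Me against DMSO (edgeR adjusted p = 0.611 and 0.5). The SE was 0.715 in place of 1.454 for CXCL3, 0.755 in place of 1.17 for CXCL10 and 1.289 in place of 1.515 for CCL20.

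Beyond the 10, the chemokine repertoire of the line was narrow. Of 11 other CXC ligands, 5 had 0 counts in all 9 libraries and 3 were tested (CXCL5, CXCL6 and CXCL11); of 23 other CC and XC ligands, 14 had 0 counts and 4 were tested. Of these 7, 0 were called in any comparison by edgeR or limma, and DESeq2 called 1, CXCL6 with CDDO-Me. Among the CC ligands, CCL28, an epithelial attractant of lymphocytes, averaged 4.13 ± 1.15 CPM in CDDO-Me, 3.88 ± 0.562 CPM in PRL-295 and 6.89 ± 1.53 CPM in DMSO (log2 fold changes against DMSO of -0.74 and -0.80, edgeR adjusted p = 0.155 and 0.297). CCL26, an eosinophil attractant, had 0, 0.893 and 1.45 CPM in CDDO-Me, 2.88, 5.87 and 3.25 CPM in PRL-295 and 1.44, 3.40 and 5.07 CPM in DMSO libraries (edgeR adjusted p = 0.189 and 0.949 against DMSO, 0.23 directly). Of 23 chemokine receptors, 8 had 0 counts, among them CCR2, CCR6, CXCR3 and CX3CR1, and 0 of 4 tested were called by edgeR or DESeq2 (limma on log2(FPKM + 1) called 1, CXCR1 with CDDO-Me). ACKR3, a scavenging receptor, was the highest of them at 18.8 ± 4.88, 13.1 ± 0.187 and 11.7 ± 3.53 CPM in CDDO-Me, PRL-295 and DMSO. CXCR1, a receptor of CXCL8, was at 1.94 ± 0.626, 0.508 ± 0.128 and 0.597 ± 0.315 CPM (1.69 for CDDO-Me against DMSO, edgeR adjusted p = 0.144). At an unadjusted p under 0.05, 5 of the 11 tested genes of these 3 lists passed for CDDO-Me against DMSO (26.0% of all tested genes did) and 2 for PRL-295 against DMSO (12.9%).

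Genes that release or hold chemokines were tested in 9 of 10 cases. CDDO-Me raised 2 of the 9 against DMSO (MMP1 and ADAM17, as with limma) and lowered 0, where 4.65% of all tested genes were called higher. DESeq2 also called SDC1 higher, and 3 of the 9 had an unadjusted p under 0.05 (26.0% of all tested genes). PRL-295 raised and lowered 0 (1 of the 9 had an unadjusted p under 0.05, against 12.9% of all tested genes, and DESeq2 and limma called 0). PRL-295 against CDDO-Me had 0 higher and 1 lower, MMP1 (0.684% of all tested genes were lower), and DESeq2 also called ADAM17 and SDC1 lower. MMP1, the interstitial collagenase, was at 15.7, 24.9 and 15.3 CPM in CDDO-Me, 3.94, 5.72 and 6.21 CPM in PRL-295 and 6.77, 4.77 and 4.88 CPM in DMSO libraries. Every CDDO-Me library was above all others, with 1.77 ± 0.28 SE against DMSO (edgeR adjusted p = 0.00429), and PRL-295 was lower than CDDO-Me (-1.78 ± 0.28 SE, edgeR adjusted p = 0.0112, or 0.058 without PRL-295 3). ADAM17, a protease that sheds tumour necrosis factor and CX3CL1, averaged 49.8 ± 6.54 CPM in CDDO-Me, 34.5 ± 2.44 CPM in PRL-295 and 26.0 ± 2.83 CPM in DMSO (0.94 ± 0.15 SE for CDDO-Me, edgeR adjusted p = 0.00506), and this call was lost with the GC and length correction (0.39, adjusted p = 0.219). ADAM10, the main sheddase of CXCL16, averaged 106 ± 28.7, 76.7 ± 38.1 and 67.6 ± 3.84 CPM and was not called (0.64 and 0.20, edgeR adjusted p = 0.232 and 0.878). The highest of these genes for PRL-295 were SDC1 and SDC4, the syndecans, cell-surface proteoglycans, at 378 ± 3.33 and 257 ± 13.6 CPM against 406 ± 55.3 and 261 ± 26.7 CPM in DMSO. In CDDO-Me, SDC1 averaged 548 ± 87.5 CPM (0.43 against DMSO, edgeR adjusted p = 0.0645).

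Cytokines and receptors that induce chemokines were tested in 15 of 17 cases, and CDDO-Me lowered 1, IL1B, with 0 raised by edgeR or limma. Of all tested genes, edgeR called 4.57% lower, 4.65% higher and 9.22% in either direction. DESeq2 also called IL1B lower and called 4 higher, IL1A, IFNAR1, IFNGR1 and IL17RC. Over all 16239 genes DESeq2 called 1371 higher and 1245 lower with CDDO-Me. By edgeR, 7 of the 15 had an unadjusted p under 0.05 (26.0% of all tested genes). IL1B, the secreted interleukin-1, had 13.8, 25.1 and 27.6 CPM in CDDO-Me, 79.3, 73.8 and 85.8 CPM in PRL-295 and 44.6, 51.2 and 49.8 CPM in DMSO libraries. The 3 groups did not overlap, with CDDO-Me below and PRL-295 above DMSO. CDDO-Me against DMSO gave -1.14 ± 0.22 SE (edgeR adjusted p = 0.0115, or 0.0574 without DMSO 2), PRL-295 against DMSO 0.74 ± 0.22 SE (adjusted p = 0.173) and PRL-295 against CDDO-Me 1.88 ± 0.22 SE (adjusted p = 0.00261). PRL-295 against DMSO had 0 of the 15 called by edgeR or limma and 3 with an unadjusted p under 0.05 (12.9% of all). DESeq2 called 2, IL1A and IL1B, both higher, where it called 414 of all 16239 genes higher. IL1A, the cell-associated interleukin-1, had 15.6, 53.3 and 39.3 CPM in CDDO-Me, 64.4, 31.8 and 44.6 CPM in PRL-295 and 14.1, 12.9 and 15.9 CPM in DMSO libraries, with 1.33 for CDDO-Me (edgeR adjusted p = 0.0511) and 1.74 for PRL-295 (adjusted p = 0.0773). The genes of this list with the most CPM were TNFRSF1A, the main receptor of tumour necrosis factor, and IL17RA, a subunit of the interleukin-17 receptor. TNFRSF1A averaged 183 ± 23.1, 193 ± 14.9 and 193 ± 19.8 CPM in CDDO-Me, PRL-295 and DMSO. IL17RA averaged 72.4 ± 6.58, 79.7 ± 7.24 and 80.6 ± 4.2 CPM in the same order. TNF itself averaged 1.53 ± 0.818, 0.863 ± 0.023 and 1.6 ± 0.883 CPM in CDDO-Me, PRL-295 and DMSO.

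All 21 genes of chemokine transcription were tested. CDDO-Me raised 1 (JUN) and lowered 1 (IRF1), PRL-295 raised 1 (FOSL1) and lowered 0, and PRL-295 against CDDO-Me had 2 higher (IRF1 and FOSL1) and 0 lower. Of all tested genes, 4.65% were called higher and 4.57% lower with CDDO-Me, 0.462% and 0.222% with PRL-295, and 0.905% and 0.684% directly. In either direction 9.22% were called with CDDO-Me, close to the 2 of 21 here. At an unadjusted p under 0.05, 9, 4 and 4 of the 21 passed, against 26.0%, 12.9% and 17.2% of all tested genes. DESeq2 called 3 higher and 2 lower with CDDO-Me, 2 and 1 with PRL-295, and 3 and 0 directly. Over all 16239 genes it called 2616, 603 and 1054 in these comparisons. IRF1, a transcription factor of the interferon response, was at 24.3, 27.1 and 30.0 CPM in CDDO-Me, 43.9, 56.7 and 45.6 CPM in PRL-295 and 56.6, 56.3 and 52.9 CPM in DMSO libraries. The CDDO-Me libraries lay below all others (-1.03 ± 0.15 SE against DMSO, edgeR adjusted p = 0.0027), and PRL-295 exceeded CDDO-Me by 0.88 ± 0.15 SE (adjusted p = 0.0172, or 0.0551 and 0.0709 without PRL-295 2 or 3). This direct IRF1 call was lost in 6 of the 23 alternative fits, those 2 included. JUN, an AP-1 subunit, averaged 61.6 ± 5.08 CPM in CDDO-Me, 54.5 ± 4.16 CPM in PRL-295 and 39.3 ± 4.64 CPM in DMSO (0.64 for CDDO-Me, edgeR adjusted p = 0.0177, and 0.0555 to 0.0914 without any 1 of CDDO-Me 2 or 3, PRL-295 3 or DMSO 1 or 2). The JUN call was lost in 7 of the 23 alternative fits, these included. FOSL1, another AP-1 subunit, averaged 318 ± 24.5, 508 ± 20.1 and 283 ± 15.2 CPM in CDDO-Me, PRL-295 and DMSO, with 0.87 ± 0.10 SE for PRL-295 against DMSO (edgeR adjusted p = 0.00231) and 0.71 ± 0.10 SE directly (adjusted p = 0.00694, or 0.0641 with GC and length correction and 0.0116 with trends from genes of at least 1 CPM). Of the 23 alternative fits, the direct FOSL1 call was lost in 4 and the call against DMSO in 1. The NF-κB subunits NFKB1, NFKB2, RELA, RELB and REL were not called for either compound, with values of -0.24 to 0.29 for CDDO-Me and -0.34 to 0.30 for PRL-295. The 8 genes of chemokine mRNA decay were all tested and 0 were called in any comparison by edgeR (2, 3 and 3 had an unadjusted p under 0.05, where all tested genes had 26.0%, 12.9% and 17.2%; limma called ZFP36 with CDDO-Me and DESeq2 called ZFP36L2 directly); KHSRP and HNRNPD, proteins that bind AU-rich elements, were the highest, at 462 ± 71.6, 495 ± 23.0 and 587 ± 39.5 CPM and at 276 ± 56.2, 348 ± 25.9 and 266 ± 19.6 CPM in CDDO-Me, PRL-295 and DMSO.

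For the 4 chemokines called against DMSO, the genes with the closest profile over the 9 libraries were sought as the smallest root mean square difference of log2(CPM + 0.5), each gene centred on its own mean, among tested genes of at least 1 CPM. CCL2 was nearest to KRT15, a keratin of basal keratinocytes (difference 0.35; means of 48.6, 175 and 382 CPM in CDDO-Me, PRL-295 and DMSO), and then to PTGES, a prostaglandin E synthase (0.368; 6.5, 32.0 and 48.7 CPM), and NEURL3 (0.401; 0.06, 1.44 and 3.25 CPM). The CDDO-Me mean of NEURL3 lies below the limit that a count of 0 allows, so its distance depends on the added 0.5. CCL5 was nearest to IQCC (0.191), EPHX2, the soluble epoxide hydrolase (0.209), and BARX2, a homeobox factor (0.213). CXCL1 was nearest to CCDC94 (0.0933), CALR, the endoplasmic reticulum chaperone calreticulin (0.0938), and KCNN4, a potassium channel (0.0982). CXCL16 was nearest to SLC29A1, a nucleoside transporter (0.055; means of 107, 160 and 170 CPM), AIMP2 (0.0786) and CDH3, P-cadherin (0.0813).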

How the data were processed

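The authors' deposited counts are raw reads per gene of 9 HaCaT libraries, aligned to hg38 with STAR 2.5 and counted with HTSeq 0.6.1 per the labels' protocols; annotation release and strand setting are not given in the sources used here. The authors' deposited FPKM equalled the count per kilobase of gene and 1e6 counted reads, within 4.98e-10%, and was used for levels between genes only. CPM were computed from the library totals. The quasi-likelihood F test of edgeR 4.0.16 (run in R 4.3.3 after filterByExpr by group and TMM) was applied to the counts in a joint fit of the 9 libraries, with Benjamini-Hochberg adjustment over 16239 genes and a threshold of 0.05. Groups were taken from the labels. The labels do not say that replicate numbers mark a shared culture or day, so no block was used. Promoters came from RefSeq (GRCh38.p14), and gene positions, GC content and overlaps from GENCODE 29, matched by gene identifier. Transcript copies were compared on the longest coding transcript.

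The members and gene lists were chosen with earlier results of these data known. Named beside the members were, per list and comparison, up to 4 called genes with the largest change or, with none called, the 2 with the highest CPM, plus genome neighbours in a chemokine cluster within 500000 bases and the 3 closest profiles; genes named beyond this (ADAM10, TNF, IL1A, IFNAR1, IFNGR1, IL17RC, ZFP36, ZFP36L2, the receptors at 0 and the NF-κB subunits) were chosen after their values were seen. The fit was tested on simulated data. Alternatives were DESeq2 1.42.0, RLE scaling or library totals, no filter or a mean of at least 1 CPM, 6 libraries only, a replicate block, GC and length correction (splines of 4 degrees of freedom), limma 3.58.1 on log2(FPKM + 1) and log2(FPKM + 0.1), a 2-fold minimum and each library left out; 2 were added after the data were seen, namely leaving out CDDO-Me 1 and DMSO 2 together and GC and length trends from genes of at least 1 CPM. Replicate-block values are given in the closing section. Intervals are 95% intervals of the log2 fold change, and errors are SD over 3 libraries unless named SE.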

Additional observations from a re-analysis of the deposited data

How the results depend on the processing

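CCL2 was called for CDDO-Me against DMSO and for PRL-295 against CDDO-Me in all 23 alternatives. Genes called for CDDO-Me against DMSO numbered 2616 with DESeq2, 2509 with no filter, 864 with the replicate block, 766 with GC and length correction, 544 with both and 518 with a 2-fold minimum, and 401 to 2803 with a library left out, the highest without CDDO-Me 1 and the lowest without DMSO 2. For PRL-295 against DMSO they numbered 603 with DESeq2, 825 with no filter, 650 with 6 libraries only, 60 with the replicate block, 62 at 2-fold and 170 with GC trends from genes of at least 1 CPM, and 33 to 589 with a library left out. For PRL-295 against CDDO-Me they numbered 1054 with DESeq2, 1250 with no filter, 45 with 6 libraries only, 156 with the replicate block, 160 with the block and GC correction, 110 at 2-fold and 417 with the added GC trends, and 60 to 285 with a library left out. The causes were not tested.

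Of the chemokines, CDDO-Me against DMSO had 2 called with 6 libraries only, with the replicate block, at 2-fold and without CDDO-Me 1 and DMSO 2 together, 1 with GC and length correction with or without the block, 3 with the added GC trends, and 2 to 4 with a library left out. PRL-295 against DMSO had 0 called with the replicate block (CCL2 adjusted p = 0.0735), 2 with the added GC trends and 0 to 1 with a library left out. PRL-295 against CDDO-Me had 1 called with 6 libraries only, the replicate block, all 3 GC corrections, the 2-fold minimum and without CDDO-Me 1 and DMSO 2, and 1 to 2 with a library left out. With the replicate block, CCL5 and CXCL1 lost their calls for CDDO-Me (adjusted p = 0.0657 and 0.0589) and CXCL16 its direct call (0.0708). The block rests on replicate numbers whose meaning the labels do not give. Deviations of same-numbered libraries correlated at -0.137 to 0.104, which cannot decide whether those libraries were paired.

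No called chemokine value changed sign. Signs turned for CXCL8 with CDDO-Me under the planned GC correction, the same with the block and the added GC trends (-0.082, -0.068 and -0.076), for CXCL16 with PRL-295 under these 3 (0.026, 0.027 and 0.003) and for CXCL1 directly (-0.19, -0.17 and -0.13). For CDDO-Me against DMSO, CCL20 was 0.59 without DMSO 2 and 1.14 without CDDO-Me 1 and DMSO 2, CXCL3 0.046 without DMSO 1, and CXCL10 0.34 without CDDO-Me 1, 0.28 without DMSO 2 and 0.86 without both. For PRL-295 against DMSO, CCL20 was 0.82 with the block, 0.25 with the block and GC correction, 0.046 with limma on log2(FPKM + 0.1), 0.84 without DMSO 2 and 0.79 without CDDO-Me 1 and DMSO 2. Directly, CCL20 was -0.34 without CDDO-Me 1, -0.22 without PRL-295 1 and -0.35 without CDDO-Me 1 and DMSO 2, and CXCL8 -0.023, -0.043 and -0.003 without CDDO-Me 3, PRL-295 1 or CDDO-Me 1 and DMSO 2. With 1 library left out, these values ran for CDDO-Me against DMSO from -1.496 to 0.588 (CCL20), -2.599 to 0.046 (CXCL3) and -0.879 to 0.335 (CXCL10), for CCL20 in PRL-295 against DMSO from -0.989 to 0.839, and directly from -0.34 to 1.09 (CCL20) and -0.043 to 0.305 (CXCL8). A fold against a group at 0 was not run, since each group had a count of each chemokine. The intervals of CCL20, CXCL3 and CXCL10 span several-fold changes. All of them narrowed without CDDO-Me 1 and DMSO 2 for CDDO-Me against DMSO, that of CCL20 least. CXCL2 and CX3CL1 did not pass the filter on low counts.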
